A study of Mus musculus with 31 samples.

Results

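Ribosome profiling and total RNA of tumour keratinocytes were read for the 10 alpha and beta tubulin genes Tuba1a, Tuba1b, Tuba1c, Tuba4a, Tubb2a, Tubb2b, Tubb3, Tubb4b, Tubb5 and Tubb6. They were chosen by name as a gene family, with earlier results of these data known. All 10 were found among the 20704 genes of the table of ribosome-protected fragments (RPF) and the 24593 genes of the table of total RNA. The cells are mouse squamous cell carcinoma keratinocytes of the genotype HRasG12V:TgfbrIIfl/fl, a transformed skin epithelium with an oncogenic Ras. The labels give the TGF-beta receptor allele as floxed (fl/fl), while the cell line list of the study gives both lines as deleted for it (D/D). In all groups the endogenous Eif2s1, the gene of eIF2α, was removed with CRISPR and replaced by a Myc-tagged copy driven by a lentiviral PGK promoter. S51 cells carry the copy that the stress kinases can phosphorylate, so they can mount the integrated stress response (ISR). S51A cells carry a copy whose serine is an alanine, so they are ISR-null. Both come from single-cell clones, so genotype and clone cannot be told apart here. The paper took more than a single clone of each genotype forward and reports results pooled over clones of a common genotype. Which of those clones, and how many, went into these libraries is not given in the sources used here. Cells received DMSO (vehicle) or 100 nM of the proteasome inhibitor bortezomib, for 4.5 h by the sample labels and 4 h by the methods. RPF libraries numbered 3 for S51 vehicle and 4 for each other group, and total RNA libraries 4 for each group.

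Alpha and beta tubulin form the heterodimer from which microtubules are built. Newly made chains are passed from prefoldin to the TRiC chaperonin and are then joined by tubulin cofactors. Cells also sense how much free dimer they hold: when it is in excess, TTC5 binds the first residues of a tubulin chain as it leaves the ribosome and recruits SCAPER and the CCR4-NOT deadenylase, so that the mRNA being translated is degraded. Tubulin mRNA and tubulin translation are thus tied together. The ISR limits initiation through eIF2α, and whether it acts directly on tubulin translation was not tested. Footprints (RPF) report the ribosomes on a coding sequence, total RNA reports the mRNA, and their ratio is called translational efficiency (TE) here.

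The residues that TTC5 reads are encoded at the very start of each gene, and they are shown because they set apart the alpha from the beta genes. The first 12 coding bases of 9 members follow, 5′ to 3′ and with codons 2 to 4 in capitals. Those codons give arginine, glutamate and cysteine in the alpha genes and arginine, glutamate and isoleucine in the beta genes. In the alpha genes the 12 bases span an exon junction. In the beta genes they lie in the first exon on GRCm38, at chr13:34077918-34077929 (Tubb2a, minus strand), chr13:34130222-34130233 (Tubb2b, minus), chr8:123411606-123411617 (Tubb3, plus), chr2:25224579-25224590 (Tubb4b, minus) and chr17:35838042-35838053 (Tubb5, minus).

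Tuba1a: atgCGTGAGTGC
Tuba1b: atgCGTGAGTGC
Tuba1c: atgCGTGAGTGC
Tuba4a: atgCGCGAGTGC
Tubb2a: atgCGCGAGATC
Tubb2b: atgCGAGAGATC
Tubb3: atgAGGGAGATC
Tubb4b: atgAGGGAGATC
Tubb5: atgAGGGAAATC

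All 3 Tuba1 genes share these 12 bases, and Tubb3 and Tubb4b share theirs. The other end of the coding sequence is where isotypes differ and where several modifying enzymes act. It is shown for 3 members on which the results turn, with capitals for bases that lie in a 29-base stretch found in no other place of the genome. Sequences are from RefSeq, read on GRCm38 on the strand of the gene. The stretches are chr1:75215622-75215681 (minus strand) for Tuba4a, chr2:25222308-25222367 (minus) for Tubb4b and chr17:35834982-35835041 (minus) for Tubb5.

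Tuba4a: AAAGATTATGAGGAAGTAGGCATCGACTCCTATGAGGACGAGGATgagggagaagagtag
Tubb4b: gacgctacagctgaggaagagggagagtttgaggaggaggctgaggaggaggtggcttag
Tubb5: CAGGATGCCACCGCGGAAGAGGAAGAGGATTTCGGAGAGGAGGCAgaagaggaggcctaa

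Tuba4a ends on a glutamate codon (gag) before its stop, and so lacks the tyrosine that the tubulin tyrosination cycle removes and restores on other alpha tubulins. Reads were kept in the deposited tables only if they mapped to 1 place, so the capitals are also the bases that could be counted: 45 of the last 60 in Tuba4a and in Tubb5, and 0 in Tubb4b. The last 15 bases were left out of the count in every gene.

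That limit decides how much of each tubulin the footprints can see. Of the 29-base stretches in the counted coding sequence, 94.8% (1182 of 1247) were unique in Tubb5, 92.4% in Tubb6, 90.9% in Tuba4a and 71.7% in Tubb3. Between those and the Tuba1 genes stood Tubb2a with 25.6%, Tubb4b with 21.2% (265 of 1250) and Tubb2b with 18.8%. Tuba1c had 58 of 1262 (4.60%), Tuba1b 28 of 1268 (2.21%) and Tuba1a 26 of 1268 (2.05%). Tuba1a and Tuba1b differed at 22 of 1332 aligned coding bases, Tuba1b and Tuba1c at 19, and Tuba1a and Tuba1c at 31.

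A change in Tuba1b footprints is therefore a change over those few stretches, and a level compared between genes is lowered for the Tuba1 genes and for Tubb2a, Tubb2b and Tubb4b. For total RNA, 100-base stretches of the mRNA were unique for 15.6% of Tuba1b, 28.2% of Tuba1a and 46.4% of Tuba1c, for 63.0% to 70.1% of Tubb2a, Tubb2b and Tubb4b, and for at least 99.2% of the other 4 members.

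**Figure D1:**
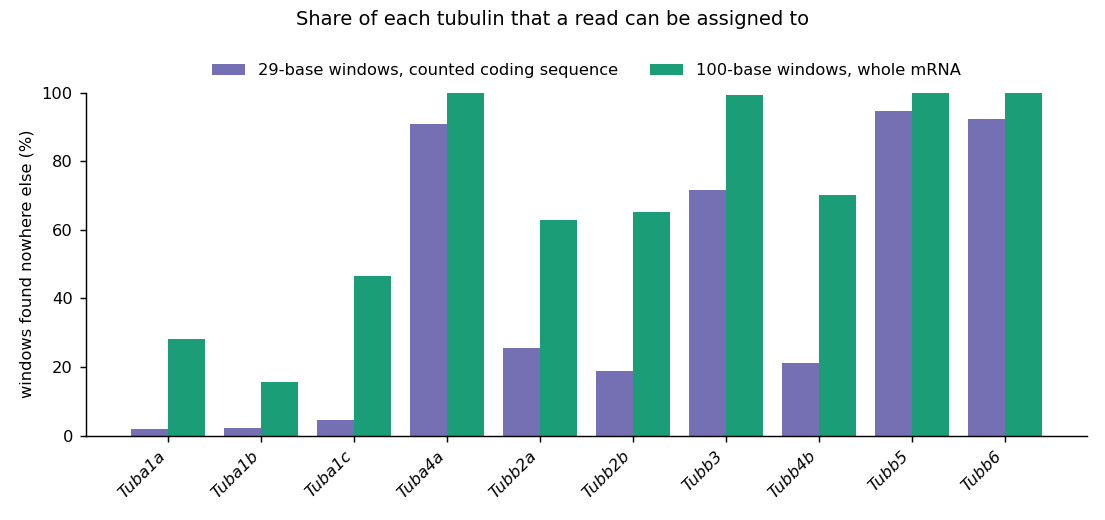
Share of each tubulin gene, in percent, that is made of windows found nowhere else in the genome: 29-base windows of the counted coding sequence (purple) and 100-base windows of the mRNA (green). Tuba1a, Tuba1b and Tuba1c stand between 2.05% and 4.60% for footprints, and Tubb5, Tubb6 and Tuba4a above 90%.

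RPF libraries held 1038826 to 4902237 counts in genes and total RNA libraries 18758668 to 22994713. Values below are CPM, read counts brought to a common library size with edgeR's trimmed mean of M values (TMM). A rise or fall in footprints, mRNA or TE is therefore relative to the other genes of the library. The paper reports lower protein synthesis rates under bortezomib, a change in the total that such values cannot show. Eif2s1, the targeted gene, was present in every library (81.2 to 259.8 CPM in RPF and 279.1 to 314.1 in total RNA), which cannot separate the S51 from the S51A copy. Its footprints were at 161.5, 81.2 and 171.0 CPM in S51 vehicle and 212.6 to 259.8 CPM in S51A vehicle, the lowest being library 2 of S51 vehicle. Keratinocyte markers (6 of 6 tested) summed to 10633 to 15371 CPM in total RNA, with 10633 to 11202 in S51 vehicle and at least 13155 in the other groups, and the part of that difference in the tubulin values was not tested. Neuron markers summed to 4.48 to 12.3 CPM (1 of 5 tested, 3 at 0 in all libraries), fibroblast markers to 2.69 to 6.94, immune markers to 3.27 to 7.32 and endothelial markers to 1.23 to 4.88. RPF library 2 of S51 vehicle stood apart from the other 2 of its group, and values without it are given beside the member values it moved most. The paper calls the replicates independent and biological in figure captions and technical in its text. Nothing in the labels ties them to separate cultures, so the spread between them may be technical.

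Per kilobase of coding sequence, Tubb5, the beta tubulin of most dividing cells, had the highest footprint level in S51 vehicle cells (2288 ± 333 CPM per kb, SD, n = 3), an order that holds on that scale alone. Tubb4b, the other widely expressed beta isotype, followed with 1555 ± 104, though it was seen through fewer unique stretches. Tubb6 (523 ± 112), Tuba4a (326.2 ± 10.5), Tuba1b (270.2 ± 27.6) and Tubb3 (265 ± 46) came next, and the ranges of the last 2 overlapped. Tuba1c had 85.6 ± 2.2, Tubb2a 8.49 ± 1.80, Tuba1a 4.23 ± 0.80 and Tubb2b 0.092 ± 0.160. In total RNA the first 2 changed places, with Tubb4b at 573 ± 12.7 and Tubb5 at 481 ± 12.1 CPM per kb of mRNA (n = 4), and Tubb2b was again last at 0.232 ± 0.109. Before division by mRNA length (1600 bases in Tubb4b, 2645 in Tubb5), Tubb5 had the higher total RNA, at 1272 CPM beside 916.7 for Tubb4b. Divided by unique stretches in place of length, the order was another. In S51 vehicle footprints Tuba1b then came first (12508 ± 1276 CPM per 1000 unique stretches of 29 bases), before Tubb4b (7500 ± 503) and Tubb5 (2468 ± 359). In total RNA Tuba1b (1043 ± 19.4 CPM per 1000 unique stretches of 100 bases) again came before Tubb4b (871.4 ± 19.4) and Tubb5 (499.7 ± 12.6). Between genes, a level therefore depends on what it is divided by, while a change within a gene and kind of library does not. Such a change can still depend on how the libraries are scaled.

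The question of the treatment is which of these genes keep their share of the footprints when cells with or without the ISR meet a blocked proteasome. In S51 cells, footprints of Tubb5 and Tuba1b fell under bortezomib while those of Tuba4a and Tubb4b rose. Tuba1c footprints rose too, a narrow call that was lost with DESeq2. In S51A cells neither Tubb5 nor Tuba1b passed the test, and both differed in response between the genotypes. The mRNA of Tubb5 rose in both, and its TE fell in S51 cells.

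Tubb5 had RPF levels of 2788, 3391 and 2572 CPM in S51 vehicle and of 2060, 1750, 1683 and 1731 CPM after bortezomib. In S51A cells it had 2733, 2736, 2761 and 2650 CPM in vehicle and 2761, 2797, 2934 and 3036 CPM after bortezomib. The S51 groups did not overlap, with every treated library below every other library of the 4 groups, and the S51A groups met at 2761 CPM. Its footprints fell by 0.69 ± 0.09 on the log2 scale (SE, 1.62-fold, adjusted p = 2.58e-06) in S51 cells. In S51A cells the difference was 0.08 ± 0.08 (adjusted p = 0.511). The S51 response minus the S51A response was −0.77 ± 0.12 (95% interval −1.004 to −0.545, adjusted p = 0.00058). Without RPF library 2 of S51 vehicle the fall in S51 cells was −0.57, and over all single libraries left out it ranged from −0.80 to −0.57.

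The mRNA of Tubb5 moved the other way. Total RNA was 1300, 1293, 1230 and 1265 CPM in S51 vehicle and 1768, 1803, 1751 and 1753 CPM after bortezomib. It was 1314, 1292, 1336 and 1326 CPM in S51A vehicle and 1546, 1555, 1559 and 1579 CPM after bortezomib. Treated and vehicle libraries did not overlap in either genotype. The rise was 0.48 ± 0.03 in S51 cells (1.39-fold, adjusted p = 2.62e-13) and 0.24 ± 0.03 in S51A cells (1.18-fold, adjusted p = 4.74e-08), and the difference between them was 0.23 ± 0.04 (adjusted p = 0.000151).

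Set against its mRNA, the footprints of Tubb5 in S51 cells went from 2.29 times the total RNA CPM in vehicle to 1.02 times after bortezomib, and in S51A cells from 2.07 to 1.85 times. TE fell by 1.17 ± 0.09 on the log2 scale in S51 cells (2.25-fold, adjusted p = 8.83e-13), which placed Tubb5 at rank 111 from the lowest of 9424 genes. In S51A cells the TE difference was −0.16 ± 0.08 (adjusted p = 0.815). The difference between the responses was −1.01 ± 0.12 (adjusted p = 2.64e-06), rank 97 from the lowest. Without RPF library 2 of S51 vehicle the TE values were −1.05 in S51 cells and −0.89 for the difference.

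Tuba1b, the alpha tubulin made in nearly all cells, was the only other member whose footprints fell. It had RPF levels of 312.1, 382.9 and 355.7 CPM in S51 vehicle and of 245.3, 259.2, 247.4 and 253.2 CPM after bortezomib. In S51A cells it had 358.4, 323.9, 338.6 and 346.6 CPM in vehicle and 376.3, 328.9, 352.1 and 355.9 CPM after bortezomib. As with Tubb5, the 4 treated S51 libraries were the lowest of all 15, and the S51A groups overlapped. The S51 difference was −0.48 ± 0.08 (1.39-fold lower, adjusted p = 0.00019), the S51A difference 0.05 ± 0.08 (adjusted p = 0.708) and the difference between them −0.53 ± 0.11 (adjusted p = 0.0144). These counts come from few read positions: 22, 28 and 32 unique stretches at lengths of 26, 29 and 32 bases. Some reads shorter than 26 bases were also counted, and unique stretches of their lengths were not examined.

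Total RNA of Tuba1b in S51 cells was 238.0, 234.5, 234.4 and 243.8 CPM in vehicle and 246.7, 253.0, 244.2 and 242.2 CPM after bortezomib. These groups overlapped, and the difference of 0.05 ± 0.03 did not pass the test (adjusted p = 0.177). In S51A cells it rose by 0.15 ± 0.03 (adjusted p = 0.000577), from 207.8 to 228.1 CPM in vehicle to 240.1 to 252.8 CPM. With library sizes in place of TMM the S51 value turned to −0.10 and passed as a fall (adjusted p = 0.00953), and the S51A value became 0.03 and no longer passed (adjusted p = 0.429). The footprints of Tuba1b went from 1.47 to 1.02 times its total RNA CPM in S51 cells and from 1.55 to 1.45 times in S51A cells. TE fell by 0.53 ± 0.08 in S51 cells (adjusted p = 1.22e-05). The difference between the TE responses was −0.44 ± 0.11 with an adjusted p of 0.0315, which was 0.115 when each lysate was a block. It passed in 21 of 31 fits that left out 1 library, with adjusted p between 0.00539 and 0.0623.

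**Figure D2:**
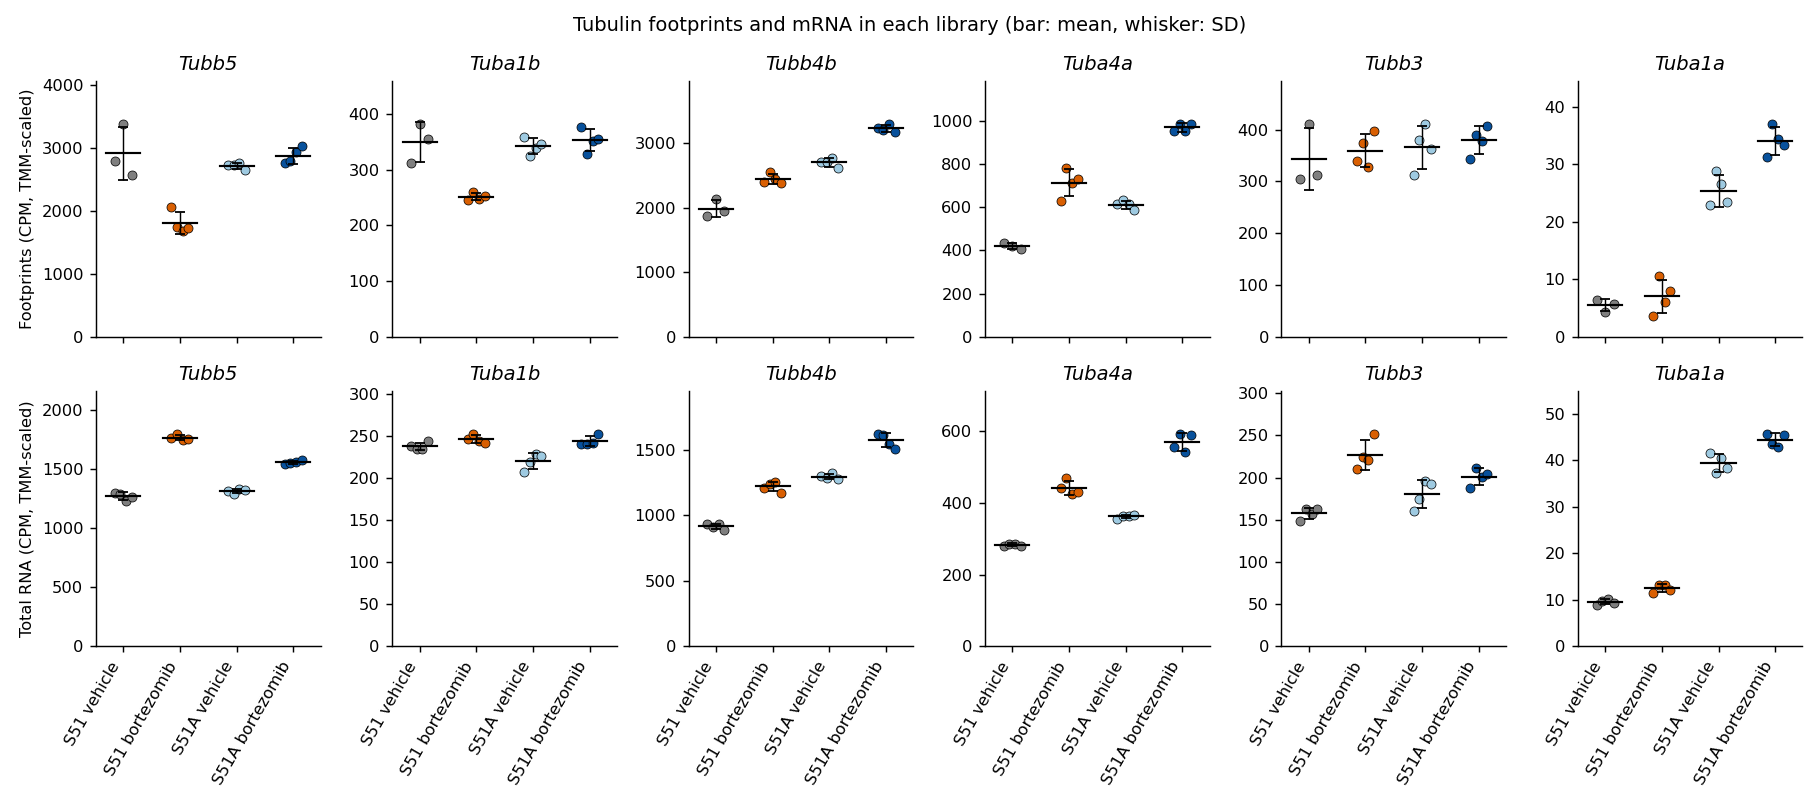
TMM-scaled CPM of 6 tubulin genes in each RPF library (upper row) and each total RNA library (lower row), by group, with the mean as a bar and the SD as whiskers. Tubb5 footprints in bortezomib-treated S51 cells (1683 to 2060 CPM) lie below all other groups while its mRNA there (1751 to 1803 CPM) lies above them.

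Tubb4b and Tuba4a gained footprints, relative to other genes, in step with their mRNA. Tubb4b had RPF levels of 1878, 2136 and 1949 CPM in S51 vehicle and of 2407, 2551, 2451 and 2383 CPM after bortezomib. In S51A cells it had 2711, 2714, 2775 and 2613 CPM in vehicle and 3238, 3212, 3306 and 3180 CPM after bortezomib. Treated libraries lay above vehicle libraries in both genotypes, and S51A above S51 at each treatment. Footprints rose by 0.30 ± 0.06 in S51 cells (adjusted p = 0.00113) and by 0.26 ± 0.06 in S51A cells (adjusted p = 0.00278), and the responses differed by 0.04 ± 0.09 (95% interval −0.13 to 0.21). Its mRNA rose by 0.41 ± 0.03 and 0.28 ± 0.03. The TE difference was −0.11 ± 0.06 in S51 cells (adjusted p = 0.311) and −0.02 ± 0.06 in S51A cells. Tubb4b is also the 1 member with an upstream ATG in its 5′UTR, a feature of 47.6% of 19552 genes with a 5′UTR.

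Tuba4a had RPF levels of 432.9, 420.6 and 406.0 CPM in S51 vehicle and of 630.3, 781.4, 714.5 and 733.2 CPM after bortezomib. In S51A cells it had 614.9, 634.4, 614.6 and 586.9 CPM in vehicle and 954.3, 988.7, 956.5 and 989.6 CPM after bortezomib. No treated library came down to the vehicle libraries of its genotype. Footprints rose by 0.77 ± 0.08 (1.70-fold, adjusted p = 1.54e-07) and 0.67 ± 0.07 (1.59-fold, adjusted p = 4.01e-07), and mRNA by 0.64 ± 0.04 and 0.65 ± 0.04. The response of neither footprints nor mRNA differed between genotypes by a margin that passed the test, with 0.10 ± 0.10 for footprints (95% interval −0.10 to 0.30) and −0.01 ± 0.05 for mRNA.

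Tubb3, the isotype known from neurons and from many carcinomas, shared part of the Tubb5 pattern. Its RPF levels were 303.9, 411.4 and 312.4 CPM in S51 vehicle and 338.4, 373.0, 327.9 and 397.7 CPM after bortezomib, which overlapped (0.07 ± 0.11, adjusted p = 0.672, and 0.22 without library 2 of S51 vehicle, adjusted p = 0.0683). Total RNA rose from 149.0, 162.6, 156.8 and 162.2 CPM to 210.1, 224.0, 221.1 and 252.1 CPM in S51 cells, by 0.52 ± 0.06 (adjusted p = 2.18e-08). In S51A cells mRNA rose by 0.16 ± 0.06 (adjusted p = 0.0225), which was 0.04 and no longer passed with library sizes alone and did not pass in 3 of 16 fits that left out 1 library, and the responses differed by 0.37 ± 0.08 (adjusted p = 0.00188). The Tubb3 TE fell by 0.45 ± 0.13 in S51 cells (adjusted p = 0.0182). That call was lost without RPF library 2 of S51 vehicle, the 411.4 CPM above (−0.31, adjusted p = 0.0776), and without RPF library 3 of S51 bortezomib (−0.40, adjusted p = 0.0635). The TE responses of the genotypes differed by −0.35 ± 0.17, which did not pass (adjusted p = 0.439).

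Tubb6, a beta isotype of many non-neuronal tissues, had RPF levels of 599.4, 835.9 and 577.8 CPM in S51 vehicle and of 657.2, 659.0, 580.6 and 594.9 CPM after bortezomib. Library 2 of S51 vehicle again stood highest, and the groups overlapped (−0.11 ± 0.10, adjusted p = 0.45). Without that library the sign turned, to 0.08 (adjusted p = 0.438). In S51A cells footprints were 705.2 to 765.8 CPM in vehicle and 742.6 to 771.3 CPM after bortezomib. Its mRNA rose by 0.10 ± 0.03 in S51 cells (adjusted p = 0.0191) and 0.09 ± 0.03 in S51A cells (adjusted p = 0.0344), values that turned to −0.06 and −0.03 with library sizes alone. Leaving out 1 library ended the first call in 2 of 16 fits and the second in 3.

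Tuba1c, a close paralog of Tuba1b, had RPF levels of 113.7, 109.3 and 108.3 CPM in S51 vehicle and of 148.5, 135.8, 118.0 and 126.6 CPM after bortezomib. The rise of 0.25 ± 0.09 passed narrowly (adjusted p = 0.0474), was lost with DESeq2 (adjusted p = 0.0541), and passed in 1 of 15 fits that left out 1 library (adjusted p 0.0281 to 0.143). In S51A cells it had 130.8 to 144.7 CPM in vehicle and 149.8 to 158.6 CPM after bortezomib, a difference of 0.18 ± 0.08 (adjusted p = 0.131). The mRNA differences of Tuba1c, 0.06 ± 0.03 and 0.03 ± 0.03, did not pass and turned to −0.09 in both genotypes with library sizes alone, which passed as falls (adjusted p = 0.0189 and 0.0243). Tuba1b and Tuba1c, which differ at 19 coding bases, thus had footprint changes of opposite sign in S51 cells. Tuba1b had 22 to 32 and Tuba1c 50 to 64 unique stretches, at lengths of 26 to 32 bases.

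Tuba1a, the alpha isotype of developing neurons, was low and set apart the genotypes more than the treatment. Its RPF levels were 6.38, 4.35 and 5.73 CPM in S51 vehicle and 3.64, 10.5, 6.05 and 7.84 CPM after bortezomib, from 5 to 23 counts a library. In S51A cells they were 22.9, 28.7, 26.6 and 23.3 CPM in vehicle and 31.3, 37.0, 34.3 and 33.3 CPM after bortezomib. Every S51A library lay above every S51 library. Vehicle S51A cells had 4.53-fold the Tuba1a footprints (2.18 ± 0.21, adjusted p = 1.13e-07) and 4.10-fold the mRNA (2.04 ± 0.06, adjusted p = 1.03e-18) of vehicle S51 cells. Bortezomib raised the mRNA by 0.39 ± 0.07 in S51 cells and, in S51A cells, by 0.17 ± 0.05, which did not pass with library sizes alone (0.06). Map2, the 1 neuron marker tested, was also higher in S51A than in S51 vehicle cells (total RNA log2 difference 1.03), while Rbfox3, Snap25 and Syt1 were at 0 in all total RNA libraries. This was not particular to neuron markers. From S51 to S51A vehicle, fibroblast markers went from 2.692 to 3.58 CPM to 4.6 to 6.935 CPM. Immune markers went from 3.272 to 4.038 CPM to 5.566 to 6.506 CPM, and endothelial markers fell, from 3.341 to 4.882 CPM to 1.232 to 1.928 CPM. Whether the Tuba1a and Map2 differences are linked was not tested.

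Tubb2a and Tubb2b, beta isotypes of neural tissue that share 65.5% of their 29-base stretches, were the least abundant beta members. Tubb2a mRNA rose from 10.9, 10.1, 11.5 and 9.38 CPM to 19.4, 19.4, 17.9 and 19.0 CPM in S51 cells. It rose from 13.4, 11.95, 11.5 and 9.90 CPM to 22.4, 24.3, 20.6 and 17.5 CPM in S51A cells. The changes were alike in size, at 0.86 ± 0.10 (adjusted p = 3.7e-08) and 0.86 ± 0.09 (adjusted p = 3.23e-08), and the difference between them was 0.00 ± 0.13 (95% interval −0.25 to 0.25). Tubb2a footprints rose by 0.61 ± 0.18 in S51A cells (adjusted p = 0.0156, but 0.0824 without library 2 of S51A vehicle and 0.059 without library 1 of S51A bortezomib). In S51 cells, with 17 to 49 counts a library, they differed by 0.49 ± 0.22, which did not pass (adjusted p = 0.104). Tubb2b had 0 or 1 RPF count in each S51 library and 3 to 10 in each S51A library, too few for the RPF test. Its mRNA was at 0.167 to 0.826 CPM in S51 and 1.75 to 3.96 CPM in S51A libraries, and vehicle S51A cells had 5.25-fold that of vehicle S51 cells (adjusted p = 3.67e-08).

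**Figure D3:**
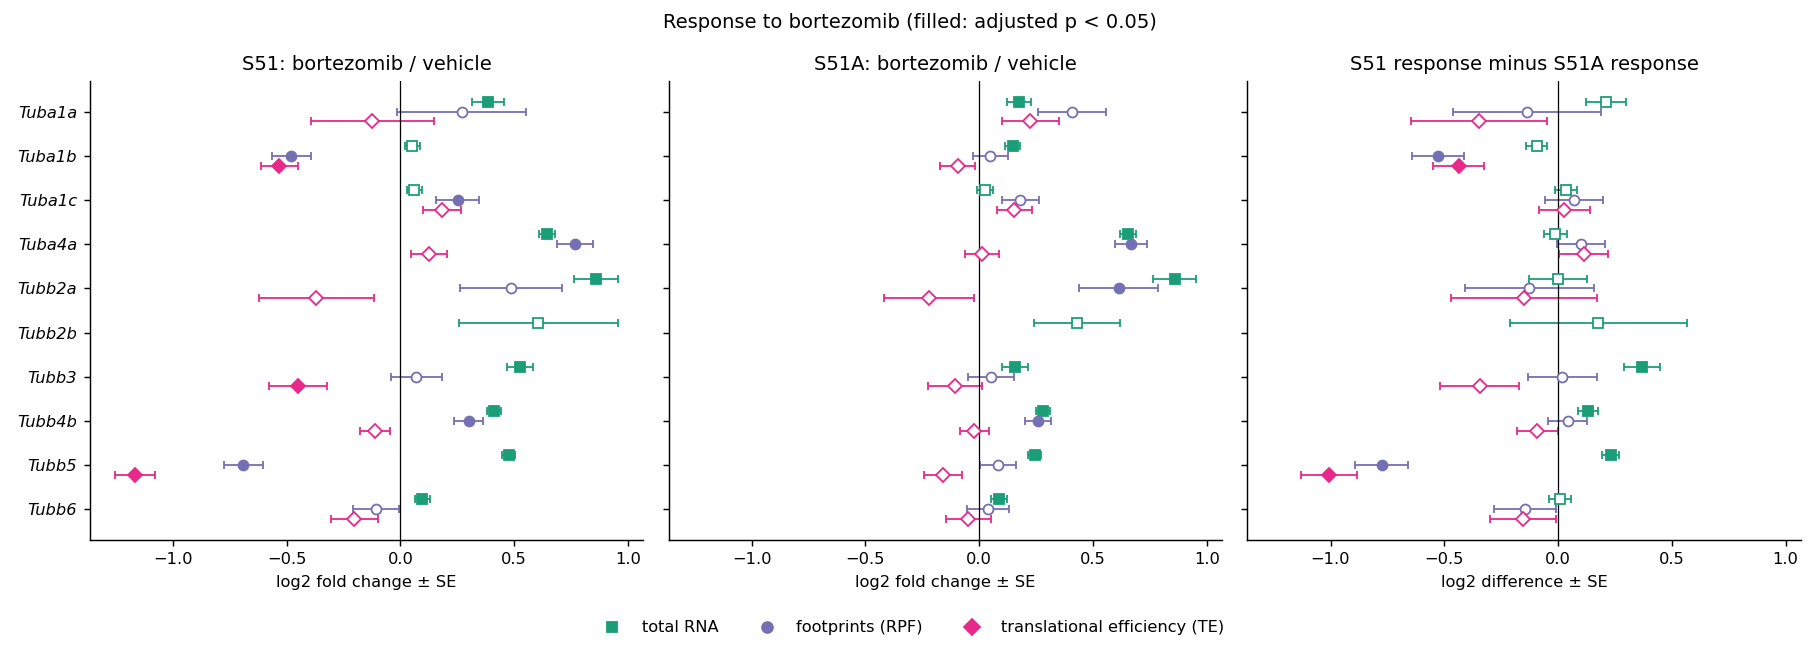
Log2 fold change with SE of each tubulin gene after bortezomib in S51 cells (left), in S51A cells (middle) and the difference between the responses (right), for total RNA, footprints (RPF) and translational efficiency (TE). Filled symbols passed an adjusted p of 0.05: Tubb5 and Tuba1b are the members filled for footprints and TE in the right panel (Tubb5 −0.77 and −1.01, Tuba1b −0.53 and −0.44).

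Counted as a group, 9 members could be tested in RPF and TE and all 10 in total RNA. In S51 cells 3 were higher and 2 lower in RPF after bortezomib, where 14.8% of all 9457 genes tested were called higher and 16% lower. The Tuba1c call among these was lost with DESeq2, with no filter and with the replicate block. The median member change was 0.25, beside 0.00 over all genes. In total RNA 7 of 10 rose and 0 fell, against 29.7% and 30.2% of 11708 genes, with a median of 0.44. In TE 0 rose and 3 fell, against 2.38% and 7.27% of 9424 genes, with a median of −0.20. With library sizes alone, the median over all genes moved to −0.16 in total RNA and its calls became 1957 higher and 5573 lower, so the members' mRNA is best read against the other genes. Under that scaling 6 members were called higher and 2 lower, Tuba1b and Tuba1c. In TE it called 2 members higher, Tuba1c (0.34) and Tuba4a (0.28), and 2 lower, with Tubb3 lost, as the calls over all genes became 1143 higher and 398 lower and their median 0.15.

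In S51A cells 3 members rose and 0 fell in RPF (9.25% and 11.4% of genes), with a median of 0.18. In total RNA 8 rose and 0 fell (27.5% and 28.9%), with a median of 0.21. With library sizes alone these became 4 higher and 1 lower, Tuba1c, with Tuba1a, Tuba1b, Tubb3 and Tubb6 lost and the calls over all genes at 1923 higher and 5012 lower. In TE 0 were called in either direction by edgeR and by DESeq2, where 0.106% and 1.24% of genes were called by edgeR, and 1 member had an unadjusted p under 0.05.

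The test of the difference between the responses called 0 members higher and 2 lower in RPF, Tubb5 and Tuba1b, where 1.04% of genes were called higher and 1.31% lower. It called 3 higher and 0 lower in total RNA (12% and 9.58%), namely Tubb5, Tubb3 and Tubb4b. With library sizes alone it called 2 higher and 1 lower, with Tubb4b lost and Tuba1b at −0.13. Of these the Tubb4b call (0.13 ± 0.04, adjusted p = 0.0323) passed in 8 of 16 fits that left out 1 library (adjusted p 0.0197 to 0.0782). In TE it called 0 higher and 2 lower (0.223% and 1.5%), again Tubb5 and Tuba1b.

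Before any drug, S51A cells had more footprints than S51 cells on 4 members and fewer on 0, where 14.8% of genes were called higher and 13.8% lower. These were Tuba1a, Tuba4a (0.55 ± 0.08), Tubb4b (0.44 ± 0.06) and Tuba1c (0.29 ± 0.09, lost without library 3 of S51 vehicle or library 2 of S51A vehicle, with adjusted p = 0.0867 and 0.0653). Without library 2 of S51 vehicle, Tubb3 (0.25) and Tubb6 (0.32) also passed. In total RNA 7 were higher and 1 lower (31.4% and 32.4%), the lower being Tuba1b at −0.11 ± 0.03, and Tubb5 differed by 0.05 ± 0.03 (adjusted p = 0.113, but 0.0307 with library sizes alone). In TE 0 were called by edgeR and by DESeq2 (0.0743% and 0.0318% of genes by edgeR), and 2 had an unadjusted p under 0.05. Tubb5 footprints of the untreated genotypes were not separated by the test (RPF −0.10 ± 0.09, 95% interval −0.27 to 0.07). For its TE the value was −0.15 ± 0.09, which passed without RPF library 3 of S51 vehicle (−0.27, adjusted p = 0.0372).

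After bortezomib, S51 cells had fewer footprints than S51A cells on 7 of 9 members and more on 0, where 14.9% of genes were called higher and 16.6% lower. The largest were Tuba1a (−2.32 ± 0.21) and Tubb5 (−0.67 ± 0.08, adjusted p = 1.57e-06), and Tubb2a, Tuba1b, Tuba4a, Tubb4b and Tubb6 lay between −0.52 and −0.29. The Tubb2a and Tubb6 calls were lost with library sizes alone (adjusted p = 0.0665 and 0.0579) and in 9 and 4 of 15 fits that left out 1 library. The Tubb2a call was also lost with DESeq2 (adjusted p = 0.0705) and with no filter on low counts (adjusted p = 0.0670). In total RNA 2 were higher, Tubb5 (0.18 ± 0.03) and Tubb3 (0.17 ± 0.06, adjusted p = 0.0619 without library 4 of S51 bortezomib), and 6 lower (32.4% and 33.3%). With library sizes alone these were 1 higher and 7 lower, as Tubb3 was lost and Tubb2a passed. In TE 0 were higher and 2 lower (1.31% and 5.09%), Tubb5 by 0.86 ± 0.08 and Tuba1b by 0.51 ± 0.08.

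Because each member was counted over a different number of unique stretches, CPM was also divided by the number of unique 29-base windows, which gives each isotype a share of the alpha or of the beta footprints. This assumes that footprints fall evenly over the windows, and it is given as a description. Tubb5 held 22.5 ± 1.4% of the beta footprints in S51 vehicle cells (SD, n = 3) and 13.0 ± 1.2% after bortezomib (n = 4), and 16.9 ± 0.1% and 15.4 ± 0.6% in S51A cells. The S51 libraries did not overlap, with 20.9% to 23.7% before and 12.2% to 14.8% after. Tubb4b took 68.6 ± 2.1% and then 78.6 ± 1.2% in S51 cells, and 75.0 ± 0.1% and 77.3 ± 0.8% in S51A cells.

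Among the alpha genes, Tuba1b held 83.3 ± 1.9% in S51 vehicle cells and 73.9 ± 1.2% after bortezomib, and 76.0 ± 1.8% and 72.4 ± 1.5% in S51A cells. Tuba4a, whose product lacks the last tyrosine, went from 2.46 ± 0.26% to 5.14 ± 0.37% in S51 cells and from 3.34 ± 0.14% to 4.88 ± 0.24% in S51A cells. Alpha over beta, summed per unique window, went from 1.37 ± 0.07 to 1.03 ± 0.02 with bortezomib in S51 cells and from 1.18 ± 0.04 to 1.10 ± 0.04 in S51A cells. Windows of 26 or 32 bases were chosen after seeing the data. With them the S51 values were 1.53 and 1.31 in vehicle and 1.13 and 1.005 after bortezomib. The level depends on the window, while the order of the 4 groups was the same with each window. The direction in S51 cells depends on the division itself. Undivided, alpha CPM summed to 886 in S51 vehicle and 1105 after bortezomib, and beta CPM to 5929 and 5252. Per unique 29-base window the alpha sum fell there (14990 to 12148) and the beta sum rose (10958 to 11749).

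**Figure D4:**
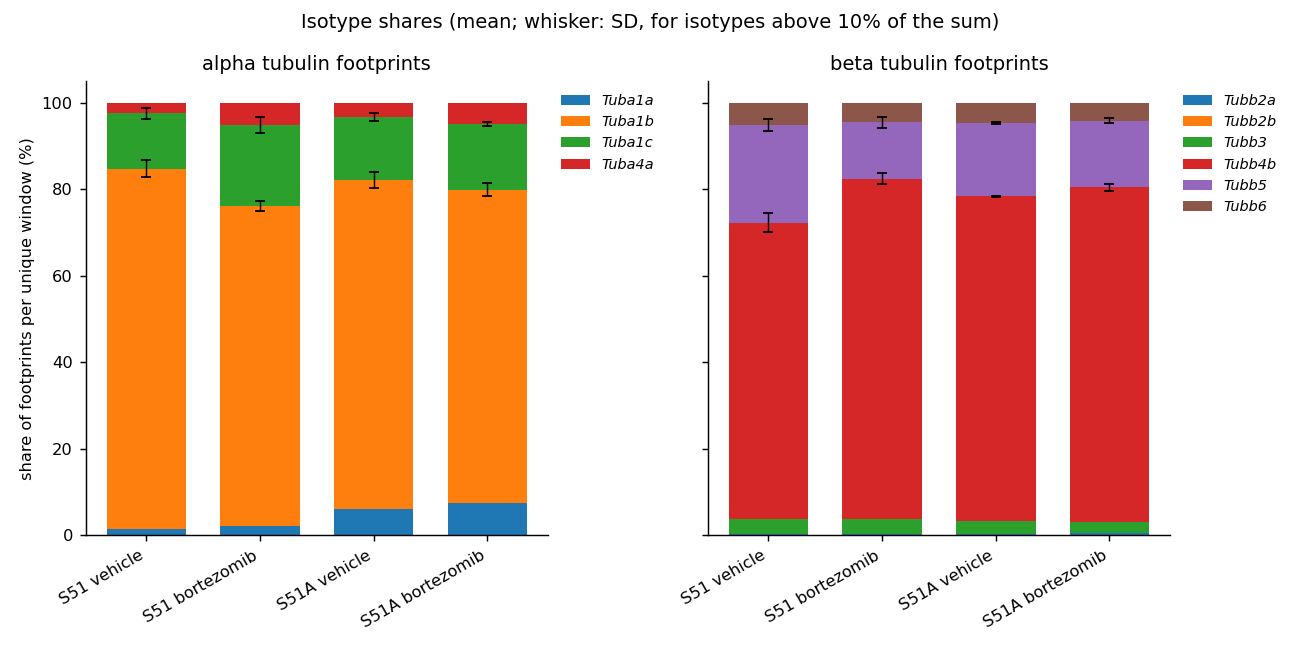
Share of each isotype, in percent, in the alpha (left) and beta (right) tubulin footprints of each group, from CPM per unique 29-base window, as the mean over libraries with the SD for the larger isotypes. The Tubb5 share of S51 cells goes from 22.5% to 13.0% with bortezomib and that of S51A cells from 16.9% to 15.4%.

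Lists of genes that work with tubulin were chosen with earlier results known, so their counts are read only against the share of all genes called. For S51 cells that share was 14.8% higher and 16% lower in RPF and 29.7% and 30.2% in total RNA, and for S51A cells 9.25% and 11.4%, and 27.5% and 28.9%. The 8 genes of the TRiC chaperonin all rose in total RNA in S51 cells (8 of 8, median 0.46) and in S51A cells (8 of 8, median 0.31), and 5 of 8 rose in RPF in S51 cells (median 0.30) and 2 of 8 in S51A cells (median 0.13). Cct7, one of its subunits, rose by 0.55 ± 0.03 in total RNA and by 0.36 ± 0.07 in RPF. Cct4, another, rose by 0.54 ± 0.03 in total RNA with an RPF difference of 0.01 ± 0.14 and a TE fall of 0.53 ± 0.14 (adjusted p = 0.0115). Without RPF library 2 of S51 vehicle the RPF value of Cct4 was −0.21.

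Of the 6 prefoldin genes, which hand nascent chains to TRiC, 2 rose and 1 fell in RPF in S51 cells (median −0.01), beside 14.8% and 16% of all genes, while 1 rose and 3 fell in total RNA (median −0.10), beside 29.7% and 30.2%. Pfdn5 fell by 0.65 ± 0.10 in RPF although its mRNA rose by 0.13 ± 0.04, a value of −0.02 with library sizes alone, and its TE fell by 0.79 ± 0.10 (adjusted p = 1.13e-07). The RPF response of Pfdn5 differed between the genotypes by −0.59 ± 0.14 (adjusted p = 0.0245). Vbp1 (0.53 ± 0.19) and Pfdn6 (0.34 ± 0.12) rose in RPF, and Pfdn2 mRNA fell by 0.31 ± 0.08. The Pfdn6 call was lost with no filter on low counts (adjusted p = 0.0661).

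Among the 7 cofactors that assemble the dimer, 1 rose and 1 fell in RPF in S51 cells (median 0.11), a share near the 14.8% and 16% of all genes, and 3 rose and 2 fell in total RNA (median 0.04), beside 29.7% and 30.2%. Tbcc, which triggers release of the finished dimer, fell by 0.99 ± 0.24 in RPF and by 1.16 ± 0.09 in total RNA. Tbce and Tbcd mRNA rose by 0.38 ± 0.07 and 0.35 ± 0.04, and Arl2 mRNA, of the small GTPase that works with them, fell by 0.14 ± 0.05. The Arl2 call was lost with no filter on low counts (adjusted p = 0.0643).

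Among the 12 genes of tubulin mRNA autoregulation, 1 rose and 1 fell in RPF in S51 cells (median 0.11), beside 14.8% and 16% of all genes, and 3 rose and 4 fell in total RNA (median −0.03), near the 29.7% and 30.2% of all genes. The mRNA of Ttc5, the sensor of the nascent chain, fell by 0.51 ± 0.07 (adjusted p = 2.43e-06), and this response differed from that of S51A cells by −0.39 ± 0.11 (adjusted p = 0.00992). Its RPF difference was 0.09 ± 0.30 (adjusted p = 0.848). Of the CCR4-NOT subunits, Cnot8, a deadenylase, rose by 0.67 ± 0.17 in RPF, Cnot3 fell by 0.47 ± 0.11 in RPF, and the Cnot1 scaffold rose by 0.22 ± 0.04 in total RNA, a call lost with library sizes alone. The link between these genes and the tubulin mRNAs was not tested.

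Of 17 genes of microtubule dynamics, 7 rose and 0 fell in RPF (median 0.28) and 12 rose and 3 fell in total RNA (median 0.25) in S51 cells, with medians of 0.00 and −0.01 over all genes and 14.8% and 16% (RPF) and 29.7% and 30.2% (total RNA) of genes called. In S51A cells 2 rose and 1 fell in RPF (9.25% and 11.4% of genes) and 8 rose and 2 fell in total RNA (27.5% and 28.9%). Ckap5, a microtubule polymerase, rose by 0.70 ± 0.13 in RPF and 0.49 ± 0.04 in total RNA, and its RPF response exceeded that of S51A cells by 0.79 ± 0.18 (adjusted p = 0.0191). Map7 rose by 0.77 ± 0.15 in RPF and 0.47 ± 0.05 in total RNA. The mRNAs of the kinesins Kif2c and Kif18a fell by 0.29 ± 0.06 and 0.16 ± 0.07, the latter not called with DESeq2 (adjusted p = 0.0522).

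Of the modifying enzymes, 10 could be tested in RPF, where 0 were called in S51 cells by edgeR and 2 had an unadjusted p under 0.05, and 13 in total RNA, where 5 rose and 2 fell. Ttll7, a polyglutamylase of beta tubulin tails, rose by 0.68 ± 0.05 in total RNA, and the deacetylase gene Hdac6 by 0.38 ± 0.06. Agbl3 and Ttll4 mRNA fell by 0.85 ± 0.20 and 0.21 ± 0.04. Of the gamma-tubulin ring complex, which seeds microtubules, 0 of 9 genes rose and 1 fell in RPF and 1 of 10 rose and 2 fell in total RNA. For both lists the shares over all genes were 14.8% and 16% in RPF and 29.7% and 30.2% in total RNA. Mzt2 fell by 0.58 ± 0.19 in RPF (adjusted p = 0.0254, but not called with DESeq2, adjusted p = 0.0503) and Nedd1 mRNA by 0.29 ± 0.05, while Tubgcp3 mRNA rose by 0.28 ± 0.04.

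Other tubulin genes gave few counts. Of 10, 3 could be tested in RPF and 4 in total RNA. Tube1, an epsilon tubulin of the centriole, fell by 1.12 ± 0.39 in RPF in S51 cells (adjusted p = 0.0319), and the mRNA of the delta tubulin Tubd1 fell by 0.35 ± 0.11 (adjusted p = 0.00814). The gamma tubulin Tubg1 differed by −0.08 ± 0.11 in RPF and −0.07 ± 0.05 in total RNA. Tuba3a, Tuba3b, Tuba8, Tubal3, Tubb1 and Tubb4a, isotypes of testis, muscle, blood platelets and brain among other tissues, did not pass the filter on low counts.

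RPF over total RNA CPM went with bortezomib in S51 cells from 2.17 to 2.0 for Tubb4b, from 2.17 to 1.58 for Tubb3, from 1.47 to 1.28 for Tubb6, from 1.48 to 1.62 for Tuba4a and from 0.664 to 0.762 for Tuba1c. In S51A cells the same ratios went from 2.09 to 2.06, from 2.03 to 1.89, from 1.26 to 1.21, from 1.69 to 1.71 and from 0.730 to 0.814. These are ratios of group means on scales set separately for each kind of library, so only their change within a gene can be read.

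Across the 16 total RNA libraries, the mean of the members' centred log2 CPM ran most like the levels of Cat (Pearson r = 0.989), Rmc1 (0.988), Cbr3 (0.987), Gstp1 (0.987) and Ttll7 (0.985). Across the 15 RPF libraries it ran most like Ass1 (0.976), Procr (0.976), Rnh1 (0.973), Capn1 (0.970) and Atp6v0b (0.970). These libraries share their groups, so the values describe group means. The members themselves were less alike than that. In total RNA Tubb4b had r = 0.989 with the mean of the members, Tubb5 0.395 and Tuba1b −0.02, and in RPF Tuba1a had 0.961, Tubb4b 0.938, Tubb5 0.457 and Tubb3 0.431.

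On GRCm38 the members lie on 7 chromosomes, and the transcript used for each has 4 exons. Tuba1b (chr15:98931429-98934390), Tuba1a (chr15:98949847-98953501) and Tuba1c (chr15:99029891-99038105) are neighbours, as are Tubb2a (chr13:34074278-34078008) and Tubb2b (chr13:34127008-34130354). Tuba4a lies at chr1:75214972-75221261, Tubb4b at chr2:25222158-25224702, Tubb3 at chr8:123411553-123422015, Tubb5 at chr17:35833920-35838301 and Tubb6 at chr18:67390731-67402749.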

How the data were processed

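RPF (15 libraries) and total RNA (16) of S51 and S51A cells were analysed from read counts per gene that the authors deposited as whole numbers, without normalization. Per their methods, reads were trimmed, aligned to mm10 with bowtie2 and counted, RPF in the coding sequence without its first 15 and last 5 codons. The labels also name featureCounts and DESeq2, and versions are not given in the sources used here. Column names of the tables state that duplicates were marked, repeats masked and only uniquely mapped reads kept, which lowers counts of near-identical genes. Whether the total RNA counts used strand is not given. Columns were assigned to samples by their numbers, and for S51 bortezomib and S51A vehicle, whose titles a note of the submitters says were exchanged, by that note and by the condition names in the source data of the paper.

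Of the identifiers, 20687 of 20704 (RPF) and 24569 of 24593 (total RNA) matched RefSeq gene names. Counts were tested with edgeR 4.0.16 (R 4.3.3, limma 3.58.1): TMM scaling, filterByExpr (minimum count 10, minimum total 15), 1 quasi-likelihood fit over the 4 groups for each kind of library, and for TE 1 fit over all 31 libraries with the interaction of library kind and group. P-values were two-sided and Benjamini-Hochberg adjusted over all genes tested, and a call is an adjusted p below 0.05. Comparisons share groups, so they are not independent. Fold changes of low genes depend on the prior count. The alternatives were DESeq2 1.42.0, relative log expression size factors, library sizes alone, no filter on low counts, a fold above 1.5, replicate and lysate blocks and each library left out. The scripts were tested on simulated counts. Unique windows of 29 bases (100 for total RNA) were counted on the GRCm38 sequence with RefSeq gene models. Per the methods of the study, a class of RPF reads shorter than 26 bases was also counted, for which no unique windows were counted here. Named genes were all members, Eif2s1, further tubulins, up to 2 genes in each direction and list with the largest called change in S51 cells, and the 5 genes most like the members in each kind of library. Members and lists were chosen with earlier results of these data known. Replicates were compared before averaging, and no 2 libraries of a group agreed within sampling noise (lowest chi-square per gene 1.66). The labels do not pair samples by replicate number. Deviations of same-numbered libraries from different groups correlated at −0.158 to 0.261 (RPF) and 0.002 to 0.191 (total RNA). Their medians were 0.0325 and 0.0922, beside −0.0223 and −0.0345 for libraries with different numbers. In total RNA 8 of 24 same-numbered pairs exceeded 0.1, and 0 of 72 other pairs did. The main fits left the numbers out, and the replicate block took them in. Some sequences are not reported here.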

Additional observations from a re-analysis of the deposited data

Results flagged for a closer look

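The responses of S51 and S51A cells to bortezomib differed for 7 values by the test of the difference itself. In RPF these were Tubb5 (−0.77 on the log2 scale, S51 minus S51A) and Tuba1b (−0.53), in TE Tubb5 (−1.01) and Tuba1b (−0.44), and in total RNA Tubb3 (0.37), Tubb5 (0.23) and Tubb4b (0.13). The Tubb5 RPF and TE values kept their sign and passed in all fits that left out 1 library, at −0.88 to −0.65 and −1.11 to −0.89. Of 67 groups of 4 libraries examined for a library apart from the others, 1 had one, about 1 in 20 being given by chance: Tuba1b total RNA in library 4 of S51A bortezomib was 252.8 CPM, beside 240.1 to 242.0 CPM in the other 3.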

How the results depend on the processing

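Counts of members called kept within 1.5 times of the main count with DESeq2, relative log expression size factors, no filter and the replicate block (15 of 15 each). A fold above 1.5 lowered them: in RPF to 2 (S51 response), 1 (vehicle), 2 (bortezomib) and 1 (difference of responses), in total RNA to 2, 2, 2, 2 and 0 (S51, S51A, vehicle, bortezomib, difference), and in TE to 1 (S51), 1 (bortezomib) and 1 (difference). Library sizes alone gave 5 for the S51A response in total RNA and 1 for the difference in TE, and the lysate block 1 for the latter. Leaving out single libraries gave 0 to 2 calls for TE in vehicle (2 without RPF library 3 of S51 vehicle) and 1 to 2 for the TE difference, where Tuba1b was lost without any 1 of 10 libraries (RPF: S51 bortezomib 3, S51A vehicle 2, S51A bortezomib 1; total RNA: S51 vehicle 2 or 3, S51 bortezomib 2, S51A vehicle 3 or 4, S51A bortezomib 1 or 2). Directions turned with library sizes alone in total RNA for Tuba1b (−0.10), Tuba1c (−0.093), Tubb6 (−0.057) and Pfdn5 (−0.020) in S51 cells and for Tuba1c (−0.090) and Tubb6 (−0.028) in S51A cells, where this scaling moved the median of all genes to −0.16 and −0.13. Cct4 in RPF ranged from −0.21 to 0.14 over the libraries left out. The cause was not tested.

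With the replicate block the Tuba1c RPF call in S51 cells was lost (adjusted p = 0.0533) and Tuba1a RPF in S51A cells (0.0483), Tubb2b total RNA in S51A cells (0.0416) and Tubb2a total RNA between the treated genotypes (0.0478) passed. Of members, 134 of 140 values kept sign and call under the block. In total RNA 15 of 16 libraries, and in RPF 11 of 15, lay closest to their own number. Depth limits Tuba1a, Tubb2a and Tubb2b in RPF, and unique sequence limits the Tuba1 genes.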
